A study of Bos taurus with 61 samples.

Results

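The genes of the bovine mitochondrial genome were taken as every row on chromosome MT, 37 of the 24616 genes with values. They comprise 13 protein genes, 22 tRNA genes and 2 rRNA genes, and all 37 matched a RefSeq mitochondrial gene by start and end, which gave the protein genes their symbols and the others their class. RNA was sequenced from hypothalamus, pituitary gland, ovary, uterus, endometrium, adipose tissue, liver and longissimus dorsi muscle of POST and PRE heifers, where POST animals had passed puberty and were in the luteal phase and PRE animals had not yet formed a corpus luteum. All were heifers of the Brangus breed, a composite with 3/8 Brahman and 5/8 Angus ancestry, and POST heifers were older and slaughtered later, so puberty, age and time of collection cannot be told apart. The labels name 31 POST libraries of 4 animals and 30 PRE libraries of 4 others, with 4 libraries per tissue and stage except 3 in each endometrium group and 3 in the PRE pituitary gland. For 2 of the hypothalamus libraries an older instrument gave much shorter reads, and how read length bears on the hypothalamus values was not tested. Each of the 16 groups of tissue and stage has 1 value per gene averaged by the authors, given as mean unique reads and as mean RPKM, in which reads are scaled to gene length and to the size of the library. A mean alone carries no error, so no test could be run, and every difference given is between means.

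Mitochondria keep a small circular genome of their own, from which a dedicated polymerase reads long transcripts that are cut at the tRNA genes into single mRNAs and rRNAs. The protein genes all encode subunits of the respiratory chain and ATP synthase. ND1, ND2, ND3, ND4, ND4L, ND5 and ND6 belong to complex I, which oxidises NADH. CYTB is the cytochrome b of complex III, COX1, COX2 and COX3 form the catalytic core of complex IV, which reduces oxygen, and ATP6 and ATP8 sit in the membrane part of complex V, which makes ATP. The remaining subunits of these complexes are nuclear genes. Nerve and muscle are known for a high demand for oxidative ATP.

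On the bovine molecule as the authors' UMD3.1 annotation gives it, the protein genes ran in the order ND1 (bases 3101 to 4056), ND2 (4266 to 5307), COX1 (5687 to 7231), COX2 (7374 to 8057), ATP8 (8129 to 8329), ATP6 (8290 to 8970), COX3 (8970 to 9750), ND3 (9823 to 10168), ND4L (10239 to 10535), ND4 (10529 to 11906), ND5 (12109 to 13929), ND6 (13913 to 14440) and CYTB (14514 to 15653). The rRNA genes came first, at bases 431 to 1385 and 1453 to 3023. ATP8 is the shortest protein gene at 201 bases and ND5 the longest at 1821. The annotation overlaps in 7 pairs of neighbours, among them ATP8 with ATP6 by 40 bases, ND4L with ND4 by 7 and ND5 with ND6 by 17, so reads on shared bases cannot be given to 1 gene with certainty. ND6 lies on the opposite strand to the other protein genes, and no strand setting is given in the sources used here.

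The unique reads and the RPKM of these genes did not match, and only the RPKM gave a level in every group. In 15 of the 16 groups no protein gene had more than 4.5 mean unique reads, and 162 of the 195 values there were 0, while the RPKM of the same genes ran between 34.2 and 8268 over all groups. The few unique reads fell on ND5, ND6 and COX1 and on the tRNA genes at bases 4123 to 4194, 7229 to 7299 and 15726 to 15791, all 6 of which overlap a neighbour. In all, 13 genes overlap a neighbour, and the rest of them, ATP8 and ATP6 included, had none in these 15 groups. Among nuclear genes with an RPKM of at least 5, which numbered 5792 to 9680 per group, only 5 to 10 had fewer than 5 unique reads. Which reads the RPKM of the mitochondrial genes counted beside the unique ones was not tested.

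The rRNA and tRNA genes were listed at an RPKM of 0 in all 16 groups, so no fold was taken for any of these 24 genes. Unique reads stood on some of them nevertheless. The tRNA gene at bases 4123 to 4194 had 8.75 to 182 mean unique reads, the one at 7229 to 7299 had 10.3 to 64.0, and the one at 15726 to 15791 had 0.333 to 6.67. The other 19 tRNA genes had none in any group. A listed RPKM of 0 despite more than 20 unique reads also occurred in 209 to 406 nuclear genes per group, so a 0 here is not a measured absence.

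The PRE pituitary gland stood apart from every other group. Its mitochondrial protein genes had 160420 mean unique reads in sum, against 0.667 to 7.75 in the other 15 groups, and the rRNA genes had 1022 and 2233, against 0 in each of the others. Mitochondrial rows took 0.804% of all unique reads there and 0.000144% to 0.00128% elsewhere. Its read means divide as averages over 4 libraries do, although 3 are labelled, and those of both hypothalamus groups as averages over 3, although 4 are labelled. Every result that uses the PRE pituitary gland is therefore given with this in view, and the tissue patterns are also given over the other 15 groups.

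Depth was even across groups, with 17109554 to 27132722 summed mean unique reads. The labelled tissues carried their defining transcripts, such as PRL in the pituitary gland (167975 RPKM in POST and 98325 in PRE), ALB in liver (38733 and 31908), ACTA1 in muscle (19080 and 23673) and ADIPOQ in adipose tissue (3407 and 2751). Some means also held transcripts typical of another tissue. POST ovary had 15908 RPKM of PRL, against 106 in PRE ovary, POST adipose tissue had 1098 RPKM of ALB, against 17.2 in PRE, and DES, a muscle gene, had 40.6 RPKM in POST and 408 in PRE endometrium. In bulk tissue, fewer cells of a type and less RNA per cell cannot be told apart.

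Hypothalamus held the highest mitochondrial share in each stage, and muscle the next in POST heifers and, above the PRE pituitary gland, in PRE heifers. Ovary, uterus and endometrium were low in each stage, and so was the POST pituitary gland. The mitochondrial genes took 5.34% of the summed mean RPKM in POST hypothalamus and 6.58% in PRE. Muscle followed with 3.92% in POST and 3.69% in PRE. Liver had 2.51% in POST and 2.30% in PRE, and adipose tissue 2.41% in POST and 1.85% in PRE. In the ovary the share was 1.46% in POST and 1.14% in PRE, in uterus 1.27% and 1.34%, and in endometrium 1.11% and 1.66%. The pituitary gland had 1.43% in POST and 3.52% in PRE. With the 10 highest nuclear genes left out, the shares were 2.68% in POST and 5.30% in PRE pituitary gland and 5.25% in POST and 5.04% in PRE muscle, so that the PRE pituitary gland then stood above PRE muscle.

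**Figure D1:**
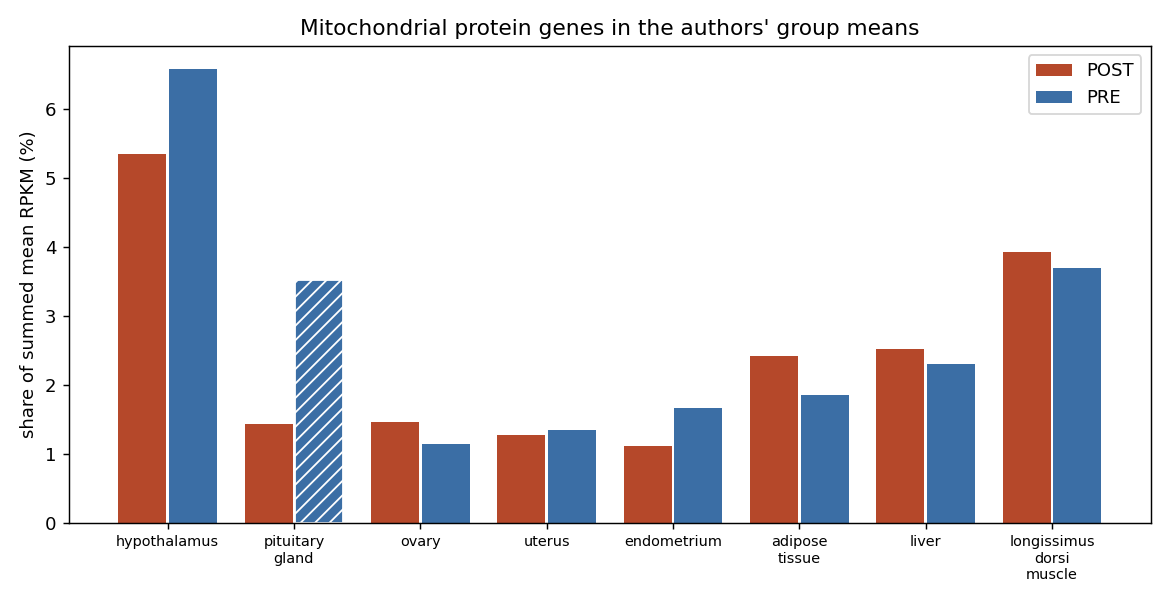
Share of the summed mean RPKM (%) taken by the 13 mitochondrial protein genes in 8 tissues, with POST bars left of PRE bars; the hatched bar is the PRE pituitary gland, whose unique reads stood apart. Hypothalamus was highest in each stage, with 5.34% in POST and 6.58% in PRE, and the bars are the authors' means, without errors.

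As a summed mean RPKM of the 13 protein genes, POST tissues ran from hypothalamus (20038) through muscle (16884), liver (11289), adipose tissue (10289), pituitary gland (7508), ovary (6508) and uterus (5339) to endometrium (3896). PRE tissues ran from hypothalamus (23059) through pituitary gland (19071), muscle (16544), liver (10121), adipose tissue (8041), endometrium (6635) and uterus (6183) to ovary (5328). With no error on the means, neighbours in either order cannot be called different, and most lay within 1.37-fold of each other. The widest steps were from muscle to the next tissue, 1.496-fold above liver in POST and 1.64-fold in PRE. Of the 13 genes, 10 had their highest POST level in hypothalamus and 9 their lowest in endometrium. In PRE heifers 8 genes were highest in the pituitary gland and 4 in hypothalamus, while 8 were lowest in the ovary.

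The tissue contrast was not the same for every gene. ND5, the long pump-arm subunit of complex I, spread most widely, from 54.8 RPKM in endometrium to 813 in hypothalamus among POST tissues, 14.9-fold, and from 57.0 in ovary to 596 in muscle among PRE tissues, 10.5-fold. ND6 spread 9.74-fold over POST and 8.85-fold over PRE tissues. COX2, which takes electrons from cytochrome c, spread least in POST tissues, from 144 in uterus to 382 in muscle, 2.65-fold. ND1 spread 3.24-fold in POST, from 86.3 in ovary to 279 in the pituitary gland, and 7.92-fold in PRE, from 67.3 in liver to 533 in the pituitary gland.

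ATP8 had the highest RPKM of the 13 genes in 15 of the 16 groups, and ND1, ND2, ND5 and COX2 were at the foot of the list. ATP8 averaged 3621 RPKM over the 16 groups, ATP6 1203, ND3 1083, COX1 1074 and ND6 921. COX3 averaged 874, ND4L 608, CYTB 448 and ND4 395. The lowest means were 270 for ND5, 258 for COX2, 203 for ND1 and 89.6 for ND2. RPKM is per length, and ATP8 shares part of its short length with ATP6, so its level depends on how the reads on those bases were counted. ND2 was the lowest gene in all but 3 groups, PRE pituitary gland, PRE ovary and POST endometrium, in which ND5 was lowest.

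**Figure D2:**
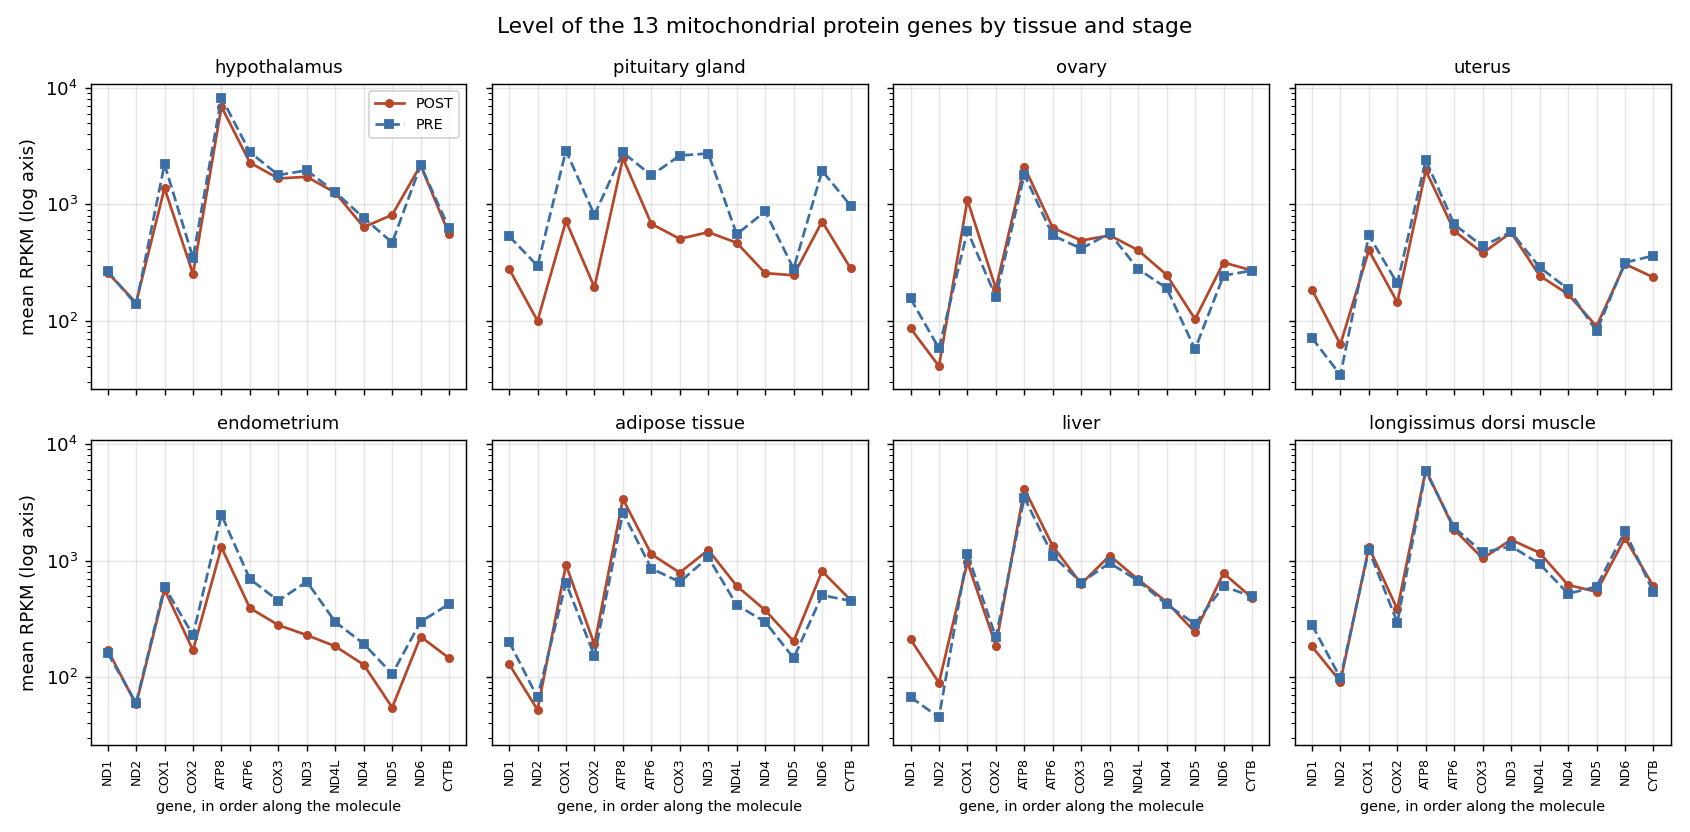
Mean RPKM (log axis) of the 13 mitochondrial protein genes in their order along the molecule, 1 panel per tissue, with POST as filled circles on solid lines and PRE as squares on dashed lines. ATP8 peaks in every panel except for the PRE pituitary gland, where COX1 reached 2889 RPKM and ATP8 2790.

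Neighbours that share a transcript kept their ratios within a narrow range outside the PRE pituitary gland. ATP8 and ATP6 are read from a joint mRNA, and ATP8 stood at 2.95 to 3.66 times the RPKM of ATP6 in the 15 other groups but at 1.57 times in the PRE pituitary gland. ND4L and ND4, the other joint mRNA, had a ratio of 1.40 to 1.98 in the 15 groups and 0.636 in the PRE pituitary gland. The ratio of ND1 to ND4, on separate mRNAs, ran from 0.160 in PRE liver to 1.35 in POST endometrium. ATP6 and ND4, also on separate mRNAs, nevertheless ran close together, with Pearson's r of log2 RPKM at 0.975 over the 15 groups. It was 0.996 for ATP8 and ATP6 and 0.993 for ND4L and ND4, so closeness was not particular to joint mRNAs. COX1 over ATP8 ran from 0.1999 in POST hypothalamus to 0.520 in POST ovary, and was 1.03 in the PRE pituitary gland.

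By complex, the 2 ATP synthase genes took 41.9% to 49.7% of the summed mitochondrial RPKM in the 15 groups and 23.9% in the PRE pituitary gland. Complex I, with 7 genes, took 25.2% to 35.1% in the 15 groups and 37.8% there. Complex IV took 15.8% in POST liver to 27.2% in POST ovary, and 33.2% in the PRE pituitary gland. CYTB alone took 2.69% in PRE hypothalamus to 6.39% in PRE endometrium. The high complex IV share of POST ovary came with COX1, at 16.8% of the mitochondrial RPKM in POST and 11.1% in PRE ovary.

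**Figure D3:**
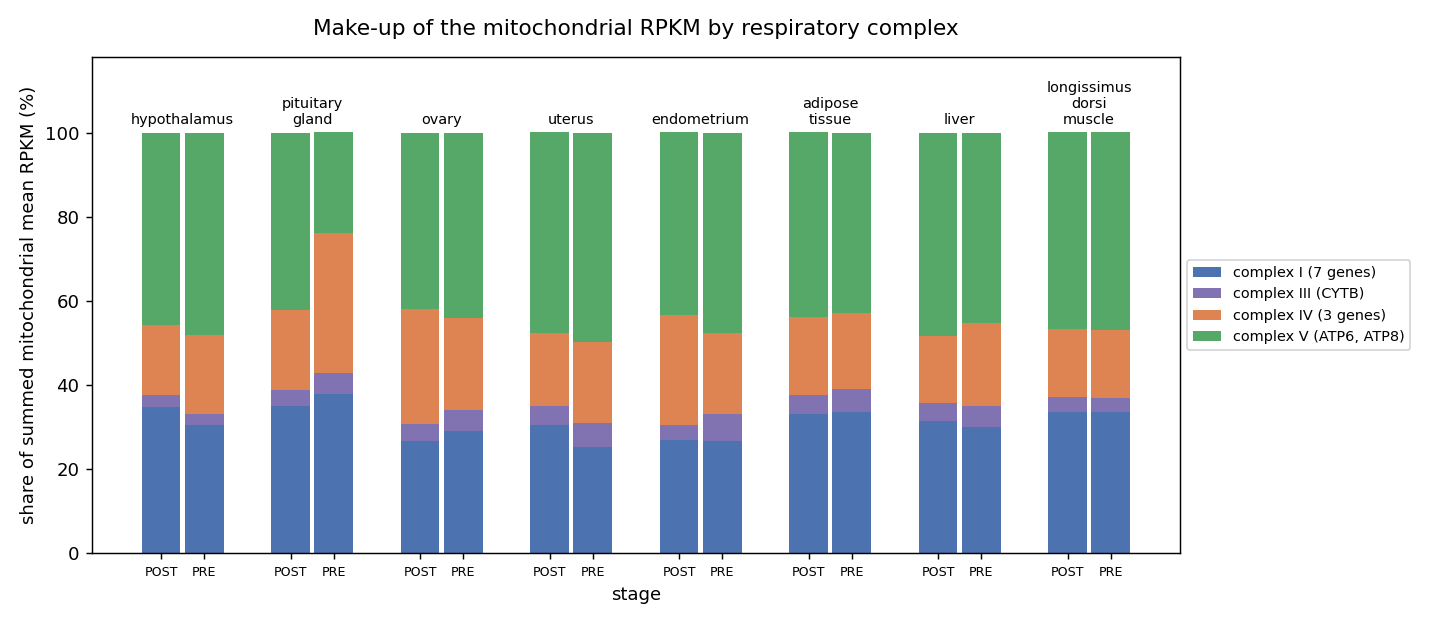
Share (%) of the summed mitochondrial mean RPKM by respiratory complex, with the POST bar left of the PRE bar in each tissue. The PRE pituitary gland had 23.9% in complex V and 33.2% in complex IV, while the other 15 groups held at least 41.9% in complex V.

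Across groups most members moved with the rest. Pearson's r between the log2 RPKM of a gene and that of the sum of the other 12, over 15 groups without the PRE pituitary gland, was 0.99 for ATP6 and ATP8, 0.98 for ND4, ND4L and COX3, 0.97 for ND6, 0.95 for ND5 and 0.93 for ND3. It was 0.88 for CYTB, 0.86 for COX1, 0.80 for COX2 and 0.72 for ND2, and lowest for ND1, at 0.40. With the PRE pituitary gland included it was 0.86 for ATP8 and 0.50 for ND1. Groups of 1 stage share their animals, so these values only describe the means and carry no p.

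Between the stages, the summed RPKM of the 13 genes as deposited differed most in the pituitary gland, an order that turns when the unique-read part is taken off. Genes counted as higher or lower were those for which the 2 means lay at least 2-fold apart on log2 of RPKM + 0.2, and each count stands beside the share of all compared genes that did so in the same direction. In the pituitary gland 9 of the 13 protein genes were at least 2-fold lower in POST, where 7.43% of 15362 genes were, and none was higher, where 0.989% were. The summed RPKM was 7508 in POST and 19071 in PRE, a log2 difference of -1.35, and the median over the 13 genes was -1.57, against 0.11 over all genes compared. All 13 genes were lower in POST. The genes just short of the limit or far from it were ND1 (-0.93), ND4L (-0.24), ND5 (-0.19) and ATP8 (-0.16).

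The cytochrome oxidase genes and ND3 had the largest pituitary differences. COX3 had 505 RPKM in POST and 2627 in PRE (log2 difference -2.38). ND3, a small complex I subunit, had 577 in POST and 2732 in PRE (-2.24). COX2 had 194 in POST and 810 in PRE (-2.06), and COX1, which holds the oxygen-reducing centre, had 720 in POST and 2889 in PRE (-2.004). These 4 genes also passed a 4-fold limit. Behind them came CYTB with 283 in POST and 977 in PRE (-1.79), ND4 with 257 and 869 (-1.76), ND2 with 99.8 and 297 (-1.57), ND6 with 712 and 1942 (-1.45), and ATP6 with 680 and 1773 (-1.38). ATP8 was nearly level, with 2488 in POST and 2790 in PRE.

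These pituitary differences rest on the PRE mean with its own kind of reads. Its unique reads per kilobase were highest on COX1 (46485), COX3 (20316), ATP6 (18385) and ATP8 (14092) and lowest on ND5 (3530) and ND6 (3399), and the 2 rRNA genes had 1070 and 1422. Set against the reads that each gene's RPKM stands for at the group's summed unique reads, unique reads made up 83.9% for ND1, 84.4% for ND2, 79.0% for COX1 and 82.3% for COX2, the 4 genes that come first along the molecule. Downstream the share was 62.0% for ND5, 50.9% for ATP6, 47.4% for ND4, 40.8% for CYTB, 40.5% for ND4L, 38.0% for COX3, 24.8% for ATP8, 19.1% for ND3 and 8.59% for ND6. Over all 13 genes it was 53.9% in the PRE pituitary gland and 0.00243% in the POST pituitary gland. In 95 short nuclear genes of the PRE pituitary gland the median was 96.5%, with quartiles of 55.7% and 126.8%. The medians in the 15 other groups were 97.4% to 121.6%, so the PRE pituitary median lay just below their range.

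With the unique-read part taken off both stages, the pituitary difference was smaller and no longer of one direction. The sum then had a log2 difference of -0.54, smaller than the -0.77 of endometrium, with 10933 RPKM left in PRE, and 4 genes were at least 2-fold lower in POST: ND3 (-1.94), COX3 (-1.69), ND6 (-1.32) and CYTB (-1.03). For 3 genes POST was at least 2-fold higher, namely ND1 (1.70), ND5 (1.21) and ND2 (1.10). COX1 and COX2 then had 0.25 and 0.43, against -2.004 and -2.06 with all reads. This calculation was chosen after the values were seen and gives no error, and no share of all genes stands beside its counts. The unique shares of ND1, ND2, COX1, COX2 and ND5, 62.0% to 84.4%, lay within the quartiles of the short nuclear genes, 55.7% and 126.8%. What was left of these genes in PRE therefore cannot be told from 0 on this scale.

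**Figure D4:**
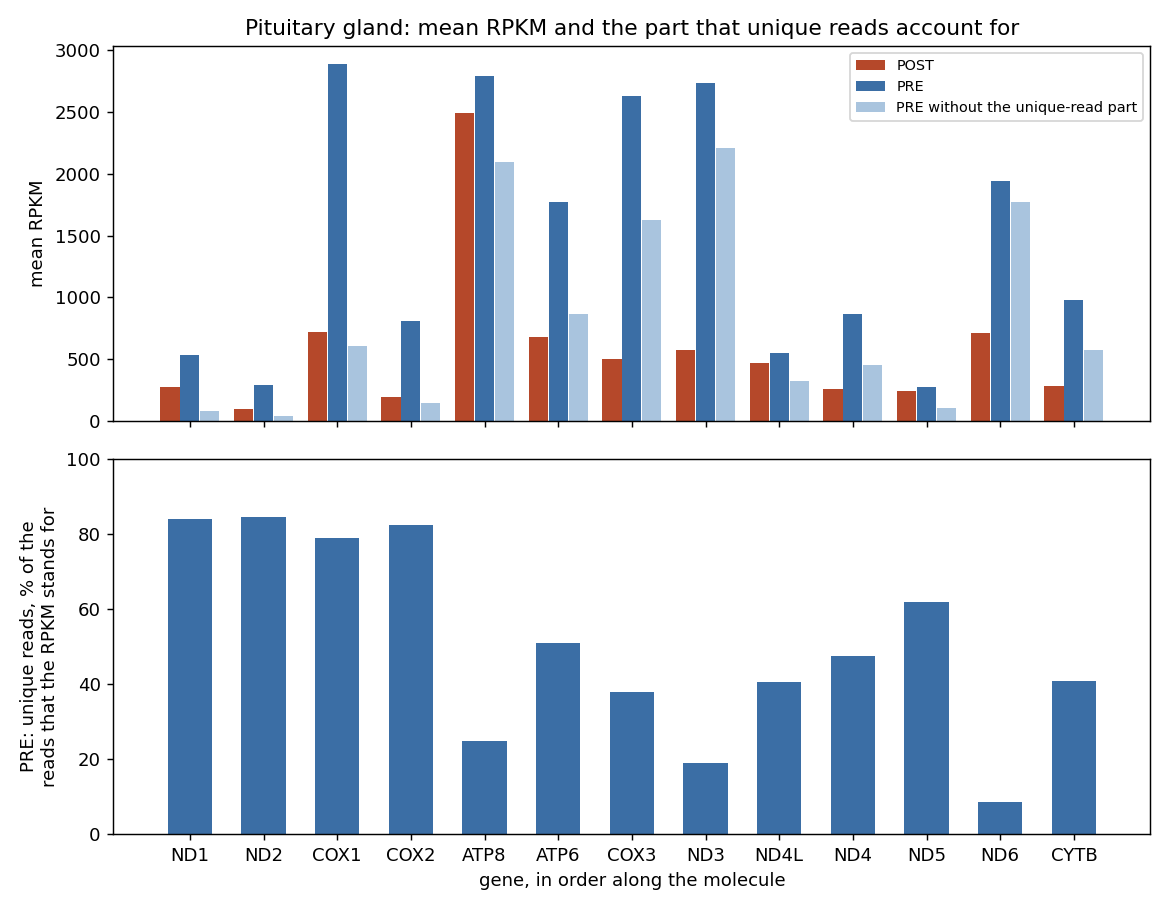
Top, mean RPKM of the 13 genes in the pituitary gland for POST, PRE, and PRE without the part that unique reads account for; bottom, unique reads as a share (%) of the reads that the PRE RPKM stands for. The share was 79.0% to 84.4% for ND1, ND2, COX1 and COX2 and 8.59% for ND6, and COX3 and ND3 kept PRE bars above their POST bars after the subtraction.

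Some markers of other cells were also lower in the POST pituitary gland, others were not, and their part in the mitochondrial difference was not tested. Of all 15362 genes compared there, 7.43% were lower in POST and 0.989% higher. All 6 connective tissue markers found were at least 2-fold lower in POST, with a summed RPKM of 422 in POST and 6589 in PRE. So were 7 of 8 endothelial markers, with 52.4 in POST and 386 in PRE. Of 6 oligodendrocyte markers 2 were lower, the myelin gene MBP with 10.8 RPKM in POST and 701 in PRE and MAG with 0.548 and 1.92. Of 3 hypothalamus markers 1 was lower, GFAP of glia with 7.12 in POST and 95.0 in PRE. The 2 blood markers compared were lower, HBA with 0.505 in POST and 2.60 in PRE and HBB with 0.451 and 2.34. Of 3 liver markers 1 was lower, APOA1 with 9.97 in POST and 94.1 in PRE. Of 3 immune markers none was lower, and IGLL1 was higher with 113 in POST and 14.3 in PRE. None of 5 skeletal muscle or 2 adipocyte markers passed the limit, and their medians were 0.49 and 0.36. None of 2 ovary or 2 smooth muscle markers did either, with medians of 0.18 and -0.86. None of the 5 pituitary hormone genes passed the limit, and they summed to 228896 RPKM in POST and 164061 in PRE. PRL held most of that sum, with 167975 and 98325 (0.77), and the median of the 5 was 0.77. CGA went the other way, just short of the limit, with 4453 in POST and 8650 in PRE (-0.96).

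In endometrium the mitochondrial genes were lower in POST as a body, with CYTB and ND3 past the limit. CYTB had 145 RPKM in POST and 424 in PRE (log2 difference -1.54), and ND3 had 229 in POST and 660 in PRE (-1.52). That is 2 of 13, where 13.5% of 15620 genes were lower, so this count is near that background. None was higher, where 10.4% were. ND5 (-0.95), ATP8 (-0.92) and ATP6 (-0.83) lay just inside the limit. The sum was 3896 in POST and 6635 in PRE (-0.77), and 12 of the 13 genes were lower in POST. ND1 was the exception, with 172 in POST and 161 in PRE. The smooth muscle markers ACTG2 and DES together had 75.05 RPKM in POST and 1071 in PRE endometrium, and their part in this difference was not tested.

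ND1 was the only gene past the limit in uterus and liver, and it was higher in POST in each. In liver ND1 had 211 RPKM in POST and 67.3 in PRE (log2 difference 1.65), 1 gene of 13 where 0.303% of 13550 genes were higher and 0.494% lower. In uterus it had 185 in POST and 71.3 in PRE (1.37), where 5.32% of 15389 genes were higher and 7.25% lower. A count of 1 of 13 is near that background in uterus, unlike in liver. Its neighbour ND2 followed it, with 89.2 in POST and 45.0 in PRE liver (0.98) and 62.8 in POST and 34.2 in PRE uterus (0.87). The other 11 genes lay between -0.24 and 0.38 in liver and between -0.62 and 0.14 in uterus. The summed RPKM barely showed this, with a log2 difference of 0.16 in liver and -0.21 in uterus.

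ND1 and ND2, the pair nearest the rRNA genes, thus took a course of their own in several tissues. In ovary ND1 had 86.3 RPKM in POST and 155 in PRE (-0.85) and ND2 40.7 and 58.0 (-0.51), while the other 11 genes lay between -0.06 and 0.89. In adipose tissue ND1 had 129 in POST and 201 in PRE (-0.64) and ND2 had -0.35, while the other 11 lay between 0.02 and 0.69. In 5 of the 8 tissues, ovary, uterus, endometrium, adipose tissue and liver, both genes lay outside the range of the other 11. In endometrium they did so only narrowly, with ND1 at 0.09 and ND2 at -0.04 beside -1.54 to -0.08 for the other 11. Hypothalamus, muscle and the pituitary gland did not show it for both genes. In muscle ND1 lay at -0.62, below the -0.20 to 0.38 of the other 11, while ND2 at -0.10 lay within that range. The pattern was noticed in these values, and 1 mean per group gives it no error.

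**Figure D5:**
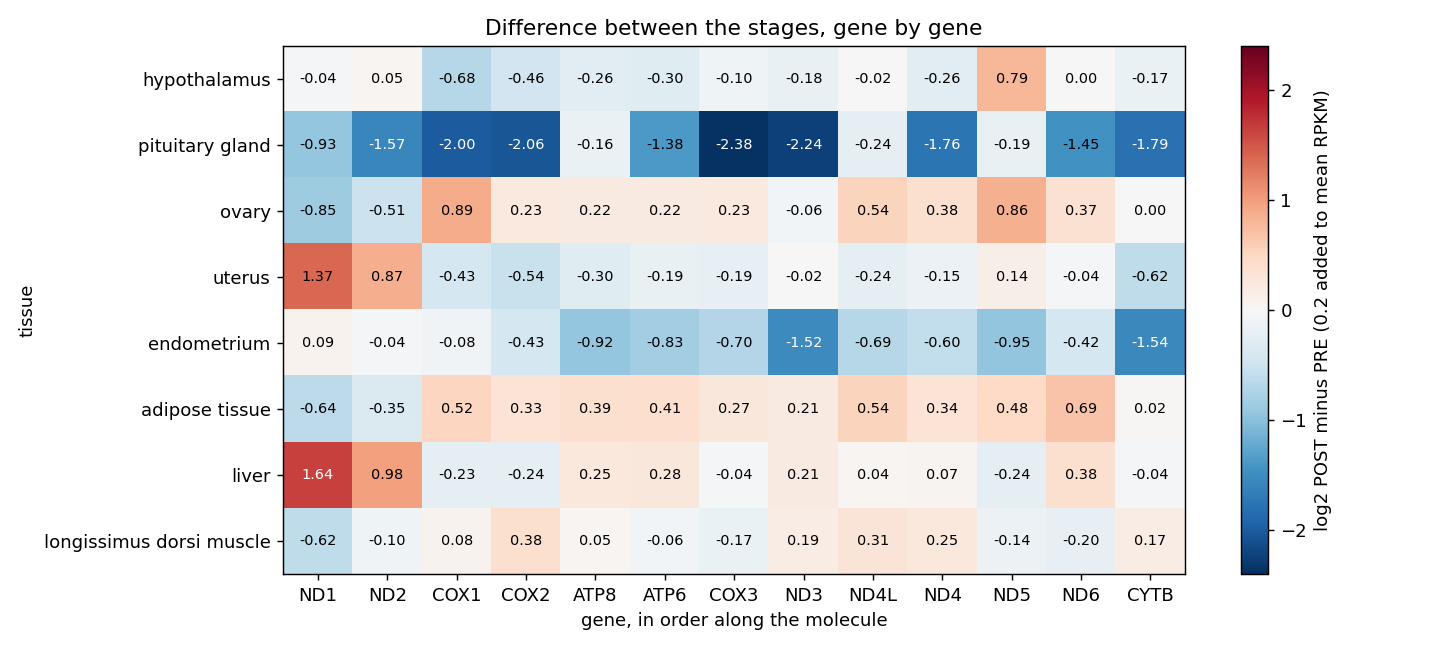
Log2 difference of POST minus PRE mean RPKM for each of the 13 genes (columns, in order along the molecule) and 8 tissues (rows), red where POST was higher and blue where it was lower. The pituitary row runs from -2.38 for COX3 to -0.16 for ATP8, and ND1 stands out with 1.65 in liver and 1.37 in uterus.

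No protein gene passed the limit in hypothalamus, ovary, adipose tissue or muscle. In hypothalamus 1.72% of 15380 genes were higher in POST and 1.48% lower, and the mitochondrial sum differed by -0.20. ND5 was the gene farthest above 0, with 813 RPKM in POST and 470 in PRE (0.79), and COX1 the farthest below, with 1380 in POST and 2205 in PRE (-0.68). In ovary 4.1% of 15540 genes were higher and 2.42% lower, the sum differed by 0.29, and COX1 had 1092 in POST and 591 in PRE (0.89). In adipose tissue 4.14% of 14648 genes were higher and 1.66% lower, the sum differed by 0.36, and ND6 had 812 in POST and 504 in PRE (0.69). Muscle had the most level mitochondrial sum, with 16884 in POST and 16544 in PRE (0.03). There 2.02% of 13300 genes were higher and 1.52% lower, and the protein genes ran from -0.62 for ND1 to 0.38 for COX2.

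The nuclear subunits of the same complexes did not rank the tissues as the mitochondrial genes did. Of 80 listed nuclear genes 76 were found, and their summed RPKM was highest in muscle (11217 in POST and 12128 in PRE) and lowest in POST and PRE liver (4815 and 4414). Mitochondrial over nuclear RPKM was highest in hypothalamus, at 2.77 in POST and 3.47 in PRE, and lowest in POST endometrium and PRE ovary, at 0.771 and 0.772. Over the 16 groups Pearson's r of the 2 sums on the log2 scale was 0.51, and over 15 groups without the PRE pituitary gland 0.52.

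In the pituitary gland the nuclear subunits differed in the same direction by less. Of 75 compared, 8 were at least 2-fold lower in POST and none higher, where 7.43% and 0.989% of all genes were. These counts are near that background, while the median difference of the list was -0.42, against 0.11 over all genes. The largest were COX4I2, a complex IV isoform, with 0.116 RPKM in POST and 13.9 in PRE (-5.48), COX8B with 0.194 and 1.81 (-2.35), and COX7A1 with 19.98 and 64.4 (-1.68). The POST values of COX4I2 and COX8B lay below the 0.2 added to each RPKM. In adipose tissue 1 of 76 was higher, where 4.14% of all genes were, namely COX8B with 11.8 in POST and 0.817 in PRE. The adipose median of the list was 0.36, against -0.02 over all genes, beside 0.36 for the mitochondrial sum. In the other 6 tissues none passed, endometrium included, where 10.4% of all genes were higher and 13.5% lower.

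Of 31 listed genes that copy, transcribe and handle mitochondrial nucleic acids 20 were found. None of them passed the limit in the pituitary gland, where 7.43% of all genes were lower and 0.989% higher, so a count of 0 of 20 is near that background. Their median was 0.19, and the largest differences were HSD17B10, a subunit of mitochondrial RNase P (23.4 RPKM in POST and 43.0 in PRE, -0.87), PPARGC1B (0.681 and 0.431, 0.48) and LRPPRC, which stabilises mitochondrial mRNAs (25.6 and 18.6, 0.45). Elsewhere PPARGC1A, a coactivator of mitochondrial biogenesis, was higher in POST muscle (13.4 in POST and 4.42 in PRE, 1.55) and uterus (2.92 and 1.05, 1.32), and PPARGC1B in ovary (2.09 and 0.944, 1.003).

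Of 20 genes of mitochondrial mass none passed the limit in the pituitary gland, again near the background of 7.43% lower and 0.989% higher, and their median was -0.12. The largest differences there were PHB2 (28.3 RPKM in POST and 47.7 in PRE, -0.75), PHB (32.1 and 54.0, -0.75), which form the prohibitin ring of the inner membrane, and the ADP/ATP carrier SLC25A6 (243 and 392, -0.69). In endometrium the Krebs cycle enzyme OGDH (293 in POST and 27.2 in PRE, 3.42) and the carrier SLC25A5 (52.1 and 23.6, 1.14) were higher in POST, against the direction of the mitochondrial genes.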

How the data were processed

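Total RNA of 8 tissues was made into TruSeq libraries and sequenced single-end on a HiSeq, apart from 2 hypothalamus libraries run on an older machine that gave shorter reads. Per the labels and the study's methods, the authors used CLC Genomics Workbench with the UMD3.1 build and deposited, for each gene, the mean unique reads and the mean RPKM of each tissue and stage. No value per library was used here, so no error or p-value is given. The RPKM of mitochondrial genes could not have come from the unique reads alone.

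Members and gene lists were chosen with earlier results of these data known. The rule for names was all protein and rRNA genes, tRNA genes by range, 3 members per nuclear list with the largest pituitary difference, any that passed the limit where 5 or fewer did, and the 5 named nuclear genes with RPKM of at least 5 in every group most like the mitochondrial sum. A list result that these names would include is not reported here. Names in the files mix symbols with UniProt entries, of which 123 were paired by hand with symbols; where a name had several rows the one with the highest mean was used. RefSeq (ARS-UCD2.0 assembly) served for names and classes only. Differences are log2 POST minus PRE with 0.2 added to the RPKM, for genes of at least 0.2 in 1 stage or both. Reads that an RPKM stands for were taken as RPKM x length in kb x summed mean unique reads of the group x 1e-06; short nuclear genes were those spanning under 1500 bases with over 500 unique reads. Alternatives were other added amounts, folds, denominators and centring. The size rule was run on simulated data with large planted changes, a check of the code that says nothing of the spread between animals. Tools were Python 3.11.15, numpy 2.4.6, pandas 2.3.3 and matplotlib 3.10.9.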

Additional observations from a re-analysis of the deposited data

How the results depend on the processing

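No paired analysis was possible because only the authors' means per tissue and stage were used, so leaving out a library could not be run either. The planned use of unique reads for stage differences, counts and tissue order was not run, since 15 groups had almost none on these genes. Taken as a share of summed unique reads, the mitochondrial genome had, in POST and PRE, 0.000162% and 0.804% in pituitary gland, 0.000951% and 0.00128% in hypothalamus, 0.000343% and 0.000144% in ovary, 0.000205% and 0.00042% in uterus, 0.00026% and 0.000302% in endometrium, 0.0007% and 0.000228% in adipose tissue, 0.000542% and 0.00066% in liver, and 0.000564% and 0.000607% in muscle. Without the 10 nuclear genes of highest RPKM the shares of RPKM were 2.68% and 5.3% in pituitary gland, 5.7% and 7.13% in hypothalamus, 1.65% and 1.23% in ovary, 1.39% and 1.49% in uterus, 1.17% and 1.8% in endometrium, 2.61% and 2.01% in adipose tissue, 3.13% and 2.79% in liver, and 5.25% and 5.04% in muscle. Leaving out the tRNA genes, listed at 0, changed no share. The pituitary sum kept a difference beyond 2-fold per nuclear RPKM, centred on nuclear genes, and without ND1, ND2, COX1 and COX2, and had -0.54 without the unique-read part, when 4 genes were lower and 3 higher in POST. Centring turned the small muscle difference to -0.007, gave 10 genes lower in POST pituitary gland (ND1 added), 4 lower in POST endometrium (ATP8 and ND5 added) and 2 higher in POST liver (ND2 added). At 4-fold the pituitary gland kept 4 genes lower, and uterus, endometrium and liver had 0. Adding 1 or 0.05 changed no count. Per nuclear RPKM 6 of 8 tissues kept their place in each stage, with ovary above pituitary gland in POST and muscle above it in PRE. Without the unique-read part, too, 6 of 8 PRE tissues kept their place, with muscle above the pituitary gland. The planned ratio of RPKM to reads says nothing of single libraries, since the reads behind the RPKM differ.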

Other observations

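Among 3893 named nuclear genes with a mean RPKM of at least 5 in every group, the 5 whose log2 RPKM was most like the summed mitochondrial protein RPKM over the 16 groups were listed, as a description without a p. RM48_BOVIN, a protein of the mitochondrial ribosome, had the highest Pearson's r, 0.87, and 0.86 over 15 groups without the PRE pituitary gland. It was followed by CRYAB_BOVIN, a small heat shock protein (0.79 and 0.82), RM34_BOVIN, another mitochondrial ribosomal protein (0.79 and 0.77), CISD1_BOVIN, an outer mitochondrial membrane protein (0.79 and 0.80), and Q0V889_BOVIN (0.77 and 0.79). RM48_BOVIN had 10.0 RPKM in POST and 13.5 in PRE pituitary gland, and 16.1 in POST and 17.3 in PRE muscle. Over the 15 groups 2 of these 5, RM48_BOVIN and CRYAB_BOVIN, stayed among the first 5, and IPO13_BOVIN (0.82), Q1RMR8_BOVIN (0.82) and Q2T9T7_BOVIN (0.82) took the other places. All 16 means come from the same few animals, and tissues dominate such a likeness.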
